A study of Mus musculus with 6 samples.

Results

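The transcriptome of resting naive CD4 T cells, helper lymphocytes before their first contact with antigen, was described in 3 wild-type libraries (WT1, WT2 and WT3) out of 6 in the series. These are the libraries whose column names end in WT in the deposited table, and the other 3, from Trim28 knockout cells, entered no comparison. The cells came from wild-type C57BL/6 littermates of TRIM28KO mice, with no treatment named, and were purified with magnets and then by flow cytometry. The sources used here give no age, organ or surface markers of the sort. No label ties the 3 libraries to separate mice, so the spread between them may be technical in part. Of 16911 gene symbols in the table, 15821 were above 0 in at least 1 wild-type library, 13446 were above 0 in all 3, and 1090 were at 0 in each.

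A naive T cell circulates between blood and lymph nodes for weeks in a small, non-dividing state. It is kept alive by interleukin 7 and by weak contacts of its antigen receptor, and it enters lymph nodes through adhesion molecules and the chemokine receptor Ccr7. Transcription factors of the Tcf7, Lef1, Foxo and Klf families keep its naive programme, and effector cytokines are made only after activation.

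Depth was 23438722 reads in WT1, 29687968 in WT2 and 40586195 in WT3, summed over the rows of the table. Values are given below as normalized reads (reads divided by the library's size factor) or as a level. The level divides normalized reads by the length of the transcript and scales the messenger RNA genes to a sum of 1000000 (TPM). Levels of genes are compared on that scale, and shares or ranks by reads, which favour long transcripts, are named as such. A level could be computed for 14826 messenger RNA genes, and their median was 4.31 TPM. Because the samples are bulk RNA, fewer cells of a type and less RNA per cell cannot be told apart. Over the 11741 genes with a mean of at least 10 normalized reads, the libraries' log values correlated pairwise across genes with Pearson's r of 0.981 to 0.988. Genes of 1 library share its depth and are not independent replicates. WT1 held Y-linked transcripts and the others nearly none, and WT2 stood apart in most of the genes with a wide spread, as described below with their values.

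The 5 genes taken as markers of naive CD4 cells were all present, 4 of them at percentiles 98.9 to 99.1 of messenger RNA genes and Lef1 far lower. Cd4, the coreceptor that binds MHC class II molecules (chr6:124864693-124888247, GRCm38.p6, the assembly of mm10), had 33669, 31880 and 34970 normalized reads in WT1, WT2 and WT3, and a level of 739 TPM ± 55.0 (SD, n = 3). Il7r, the interleukin 7 receptor alpha chain (chr15:9506159-9529941), had 36872, 42275 and 32322 normalized reads and 718 TPM ± 82.8. Tcf7, a transcription factor of T cell identity (chr11:52246527-52283383), had 18027, 28216 and 23893 normalized reads and 649 TPM ± 148. Its WT1 value was the lowest, and its relative spread was the widest of the 5. Ccr7 (chr11:99144199-99155077) had 16133, 16718 and 17983 normalized reads and 588 TPM ± 53.8. The levels of Cd4, Il7r and Tcf7 overlapped between libraries, and all 3 Ccr7 levels (543 to 647 TPM) lay below all 3 of Cd4 (696 to 801 TPM). These 4 genes ranked 131, 138, 149 and 160 among the messenger RNA genes. Lef1, the partner factor of Tcf7 (chr3:131110297-131224357), had only 361, 379 and 354 normalized reads in the 3 libraries. Its level was 10.9 TPM ± 0.37, rank 6164 and percentile 58.4. Of the 7 RefSeq transcripts of Lef1, 1 has a row in the table, so this value is that row's and not a total over the gene. Il7r, Tcf7 and Ccr7 have 2 transcripts each.

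**Figure D1:**
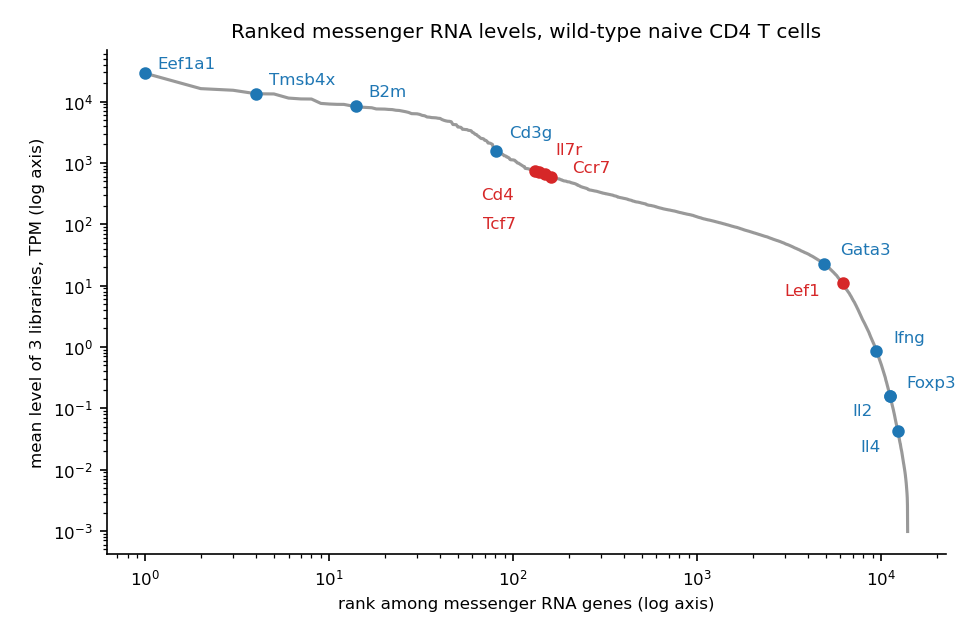
Mean level of each messenger RNA gene (TPM, log axis, mean of 3 libraries) against its rank (log axis), with genes at 0 left out. Red points are the 5 markers and blue points other genes named in the text. Cd4, Il7r, Tcf7 and Ccr7 sit together at ranks 131 to 160, Lef1 sits at rank 6164, and the cytokine genes Il2 and Il4 lie on the steep right end of the curve.

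Levels differed with the number of transcripts a gene has. The 8422 genes with 1 annotated RefSeq transcript had a median level of 7.76 TPM, and the 6397 genes with several had 2.57 TPM. Genes with 1 row in the table had a median of 5.51 TPM, those with 2 rows 1.83 TPM and those with 3 or more 1.58 TPM. Gapdh, a glycolytic enzyme with 2 transcripts that is abundant in most cells, stood at 49.3 TPM ± 5.94, and Cd44, an adhesion receptor with 6, at 0.93 TPM ± 0.12. The sources used here do not give how the counting treated reads shared by several transcripts, and its part in these values was not tested. The number of transcripts is therefore given below for genes above 0 that have several.

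A small number of genes held most of the messenger RNA. The highest 102 of 14826 genes made up 50% of the summed level, and this number was 94 to 113 in the single libraries. The 105 genes with at least 1000 TPM held 50.4% of it, the 1421 genes with at least 100 TPM 79.1%, and the 6266 genes with at least 10 TPM 98.7%. Of the 102 highest genes, 66 encode proteins of the cytosolic ribosome. Transcripts of the 102 genes had a median of 971.5 bases, against 2859 for all messenger RNA genes with at least 10 normalized reads. Some were long, such as Rps15a with 5179 bases and Btg1 with 5001. Over the 13929 genes above 0, level and transcript length had a Spearman correlation of only -0.067. By reads and not per length, 491 messenger RNA genes held 50% of the messenger RNA total, and 431 genes held 50% when non-coding genes were included.

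Genes of protein synthesis led the ranking. Eef1a1, the elongation factor that carries aminoacyl-tRNA to the ribosome (chr9:78478453-78481724), was the highest messenger RNA gene with 793011, 780112 and 696592 normalized reads and 28853 TPM ± 1046. It took 2.43%, 2.39% and 2.22% of all reads in WT1, WT2 and WT3. The stalk protein Rplp1 followed with 16237 TPM ± 490, then the small-subunit proteins Rps29 with 15271 TPM ± 841 and Rps18 with 11032 TPM ± 371, and the large-subunit protein Rpl13a with 10986 TPM ± 842. Of the 30 highest genes 25 encoded ribosomal proteins, and the other 5 were Eef1a1, Tmsb4x, Actb, Tpt1 and B2m. The 87 ribosomal protein genes of the table took 14.3%, 14.1% and 13.2% of all reads in WT1, WT2 and WT3, and 36.6% of the summed messenger RNA level. The value was lowest in the deepest library, WT3.

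Subunits of the ribosome are needed in equal number, and their measured levels were not equal. Among the 61 ribosomal protein genes with 1 RefSeq transcript the median was 4941 TPM, and among the 23 with several it was 563 TPM. The lowest members that belong to the ordinary ribosome included Rpl26 with 7.05 TPM, Rpl31 with 7.87 TPM (3 transcripts), Rps24 with 8.66 TPM (6 transcripts) and Rpl34 with 15.2 TPM (3 transcripts). Rps16, with 1 RefSeq transcript, had 630, 1230 and 1678 normalized reads and a level of 73.6 TPM. Its coefficient of variation (SD over mean) between libraries was 44.6%, against a median of 7.84% over the list. Rpl35a (3 transcripts) varied as widely, with 211, 189 and 74.9 normalized reads in WT1, WT2 and WT3 and a coefficient of 46.1%. Genes of this family have many near-identical copies in the mouse genome, so single values are uncertain. Their levels also rest on the longest linked transcript, which had 5179 bases for Rps15a and 3706 for Rps20. Rpl3l, the form of striated muscle, was at 0 in all 3 libraries.

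Among 30 translation factors, all had at least 10 normalized reads, and 19 reached 100 TPM, against 9.58% of all messenger RNA genes. Among elongation factors Eef2, which moves the ribosome along the messenger RNA, had 3140 TPM, Eef1g 1424 TPM and Eef1d, with 8 transcripts, 2.64 TPM. The initiation factor Eif4g1, with 2 transcripts, was the lowest of the list at 0.205 TPM. In the eIF3 complex, a list added after values were seen, 11 of 13 subunits reached 100 TPM, from Eif3e at 936 TPM downwards. Tpt1, a growth-related protein often grouped with the translation machinery, had 227407, 200631 and 157409 normalized reads and 11391 TPM ± 1693, lowest in WT3.

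The starts of these genes were searched for a run of pyrimidines. RefSeq promoter windows of GRCm38.p6, from 250 bases before to 50 after the start, were found within 100 bases of the measured transcript's start for 10154 of 14826 messenger RNA genes. Messenger RNAs of the translation machinery often begin with a C that opens a run of pyrimidines, a feature through which mTOR controls their translation. Below are the 20 bases before and the 10 from the annotated start on, for the 4 highest ribosomal protein genes and the 3 highest other genes with a window. Capitals mark the longest run of at least 6 letters C or T that begins with C within 10 bases of the start, and a gene without capitals has none.
Eef1a1: cgtgtgctggctccgCCCTCTTCCCgaggg
Rps18: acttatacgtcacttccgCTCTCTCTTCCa
Rpl13a: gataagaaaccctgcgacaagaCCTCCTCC
Rps4x: aaagtctgaggctgggcggagcaacccagg
Rps19: ggaggccgcacggtgagtgagggctctggg
Tmsb4x: taagccggactacgagtgacatcacctcat
B2m: cgcgccctggctggctctcatttcagtggc
The windows lie at chr9:78481715-78481744 (Eef1a1, minus strand), chr17:33955656-33955685 (Rps18, minus), chr7:45128736-45128765 (Rpl13a, minus), chrX:102189382-102189411 (Rps4x, minus), chr7:24884656-24884685 (Rps19, plus), chrX:167209209-167209238 (Tmsb4x, minus) and chr2:122147667-122147696 (B2m, plus). The run had 10 letters in Eef1a1, 11 in Rps18 and 14 in Rpl13a, where it goes on past the printed window. Rps4x and Rps19 (9 transcripts) had no run of that length there. Such a run was present in 23 of 53 ribosomal protein genes with a window (43.4%) and in 19.6% of all 10154. It was not particular to them, with 12 of 29 T cell receptor signalling genes (41.4%). Translation factors had it in 5 of 18 (27.8%), cytokine receptor and JAK-STAT genes in 29.6%, actin genes in 29.2% and effector genes in 28.6%. The run did not follow the level in general. With genes put in 10 equal classes by level, its share was 17.9% in the lowest class and 21.3% in the highest.

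Other promoter letters followed the level more closely. The median number of CpG dinucleotides per 300-base window was 8 in the lowest class, 17 in the fourth and 23 in the highest. The Sp1 box GGGCGG, searched on both strands like the motifs that follow, was present in 41.4% of windows in the lowest class and 67.4% in the highest, against 58.9% of all. The ETS core CCGGAA was present in 7.0% of windows in the lowest class, 40.8% in the ninth and 33.6% in the highest, against 25.5% of all. The TATA box letters TATAAA went the other way, from 13.8% in the lowest class to 6.40% in the ninth, and stood at 9.06% in the highest. A match describes letters and not binding, and the motifs rich in C and G move with base composition, whose median went from 56.0% to 61.3% G and C.

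**Figure D2:**
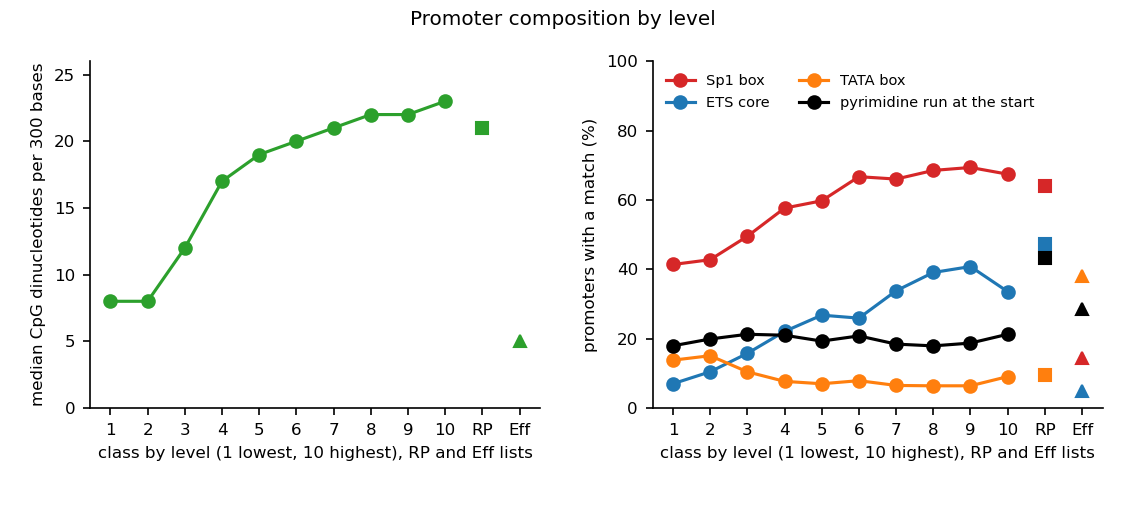
Left, median number of CpG dinucleotides per 300-base promoter window in 10 equal classes of messenger RNA genes by level (1 lowest, 10 highest), and for ribosomal protein genes (RP, square) and effector cytokine and cytotoxic genes (Eff, triangle). Right, percent of windows with each motif in the same groups. CpG number, the Sp1 box and the ETS core are higher in the upper classes, the pyrimidine run is flat over the classes and stands at 43.4% in ribosomal protein genes, and the effector genes have a median of 5 CpG and the TATA letters in 38.1%.

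T cell genes with high levels did not all have CpG-rich starts. The 250 bases before the start are shown for Tcf7 and Il7r, which have like levels, for Cd3d, and for the cytokine gene Il4, which was almost silent. Capitals mark CpG dinucleotides.
Tcf7: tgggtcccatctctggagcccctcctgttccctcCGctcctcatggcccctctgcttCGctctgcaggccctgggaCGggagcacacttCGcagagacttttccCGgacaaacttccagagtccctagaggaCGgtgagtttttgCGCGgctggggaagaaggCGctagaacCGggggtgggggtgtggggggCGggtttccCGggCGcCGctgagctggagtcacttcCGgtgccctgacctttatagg
Il7r: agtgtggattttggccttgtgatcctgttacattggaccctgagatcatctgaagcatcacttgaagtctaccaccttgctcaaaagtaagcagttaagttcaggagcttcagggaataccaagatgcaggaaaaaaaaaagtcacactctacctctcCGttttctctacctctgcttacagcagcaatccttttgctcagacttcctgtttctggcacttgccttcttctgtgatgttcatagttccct
Cd3d: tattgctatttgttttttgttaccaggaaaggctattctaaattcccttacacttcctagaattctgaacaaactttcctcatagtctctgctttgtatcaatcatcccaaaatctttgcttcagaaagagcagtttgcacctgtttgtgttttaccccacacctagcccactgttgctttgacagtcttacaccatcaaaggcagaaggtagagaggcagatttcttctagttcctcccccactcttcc
Il4: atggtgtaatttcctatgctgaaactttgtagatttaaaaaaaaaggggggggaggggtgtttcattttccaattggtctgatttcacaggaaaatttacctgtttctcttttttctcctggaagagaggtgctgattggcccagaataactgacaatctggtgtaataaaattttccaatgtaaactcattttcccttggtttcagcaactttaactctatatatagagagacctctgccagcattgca
They lie at chr11:52282596-52282845 (Tcf7, minus strand), chr15:9529877-9530126 (Il7r, minus), chr9:44981536-44981785 (Cd3d, plus) and chr11:53618666-53618915 (Il4, minus). Tcf7 had 15 CpG here, Il7r 1, and Cd3d and Il4 had 0. Levels were 649, 718 and 785 TPM for Tcf7, Il7r and Cd3d and 0.042 TPM for Il4 (2 transcripts), so a window poor in CpG was found at both ends of the range. The 21 effector genes with a window had a median of 5 CpG per 300 bases and the Sp1 box in 14.3%.

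The signalling chains of the T cell receptor were high and unequal. Cd3g had 24550, 22928 and 22731 normalized reads and 1566 TPM ± 40.7, and its neighbour Cd3d had 785 TPM ± 7.91. The zeta chain Cd247, with 5 transcripts, had 429 TPM ± 47.8. Cd3e had 5077, 8097 and 5369 normalized reads and 289 TPM ± 76.2, with WT2 above the other libraries. The 3 levels of Cd3g lay above those of Cd3d, those of Cd3d above Cd247, and those of Cd247 (381 to 476 TPM) above those of Cd3e (231 to 376 TPM). The receptor's constant segments were not analysed here.

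All 54 genes of receptor signalling in the table had at least 10 normalized reads, against 72.1% of messenger RNA genes with a level, and their median was 77.5 TPM. The adaptor Lat had 23984, 20978 and 25017 normalized reads and 1296 TPM ± 145. Dgka, the diacylglycerol kinase that limits Ras signalling, had 1448 TPM ± 101 (5 transcripts), above the kinase Prkcq at 431 TPM and the Ras activator Rasgrp1 at 250 TPM. Coro1a, an actin regulator needed for T cell survival, was the highest of the list with 3523 TPM ± 130 (2 transcripts). The proximal kinases stood lower, with Lck at 52.8 TPM (3 transcripts), Zap70 at 15.0 TPM (4) and Fyn at 4.13 TPM (3). All 3 have several RefSeq transcripts. Coreceptors and costimulatory receptors had a median of 215 TPM, from the small glycoprotein Cd52 at 4222 TPM and the tetraspanin Cd53 at 2088 TPM through Cd2 at 1045 TPM and Cd28 at 344 TPM and Ptprc (CD45, 3 transcripts) at 85.8 TPM down to Cd44 (6 transcripts) at 0.93 TPM.

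Among receptors for homing to and from lymph nodes, S1pr1, which guides exit from lymph nodes, had 33006, 31383 and 32314 normalized reads and 725 TPM ± 28.5. Itgb7 had 28449, 28742 and 28907 normalized reads and 733 TPM ± 31.3, and its partner Itga4 had 31404, 36833 and 29892 normalized reads and 229 TPM. The coefficient of variation was 2.53% for S1pr1, 0.81% for Itgb7 and 11.2% for Itga4, and its median over the list was 6.85%. Receptors of differentiated cells were far lower, with Cxcr3 at 2.65 TPM, Ccr4 at 1.29 TPM and Ccr6 at 0.040 TPM (7 transcripts).

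Some quiescence genes had high levels, and others of their list were low. Btg1, an antiproliferative factor that speeds removal of poly(A) tails, had 77766, 79996 and 84854 normalized reads and 1109 TPM ± 89.1. Slfn2, whose loss ends T cell quiescence in mice, had 967 TPM ± 26.8, Btg2 459 TPM ± 5.12, Klf2 319 TPM ± 18.0 and Foxo1 74.8 TPM ± 9.82. This list of 29 genes holds transcription and quiescence factors, and also the early activation receptor Cd69 at 548 TPM. In the list 28 genes had at least 10 normalized reads, against 72.1% of messenger RNA genes with a level. The list's median was 57.4 TPM. Its 11 members with 1 RefSeq transcript, Cd69 among them, had a median of 297 TPM and its 18 with several 33.8 TPM. Satb1 (8 transcripts) at 6.39 TPM and Bcl11b (3) at 2.71 TPM, both T cell factors, were of the second kind. So were the lowest of the list, Tsc1 at 0.080 TPM (3 transcripts), Tcf12 at 0.28 TPM (5) and Myb at 0.78 TPM (2). The survival gene Mcl1 had 816 TPM ± 20.4 and Bcl2 122 TPM ± 4.45 (2 transcripts), while Bcl2l1, with 6 transcripts, had 1.0 TPM.

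**Figure D3:**
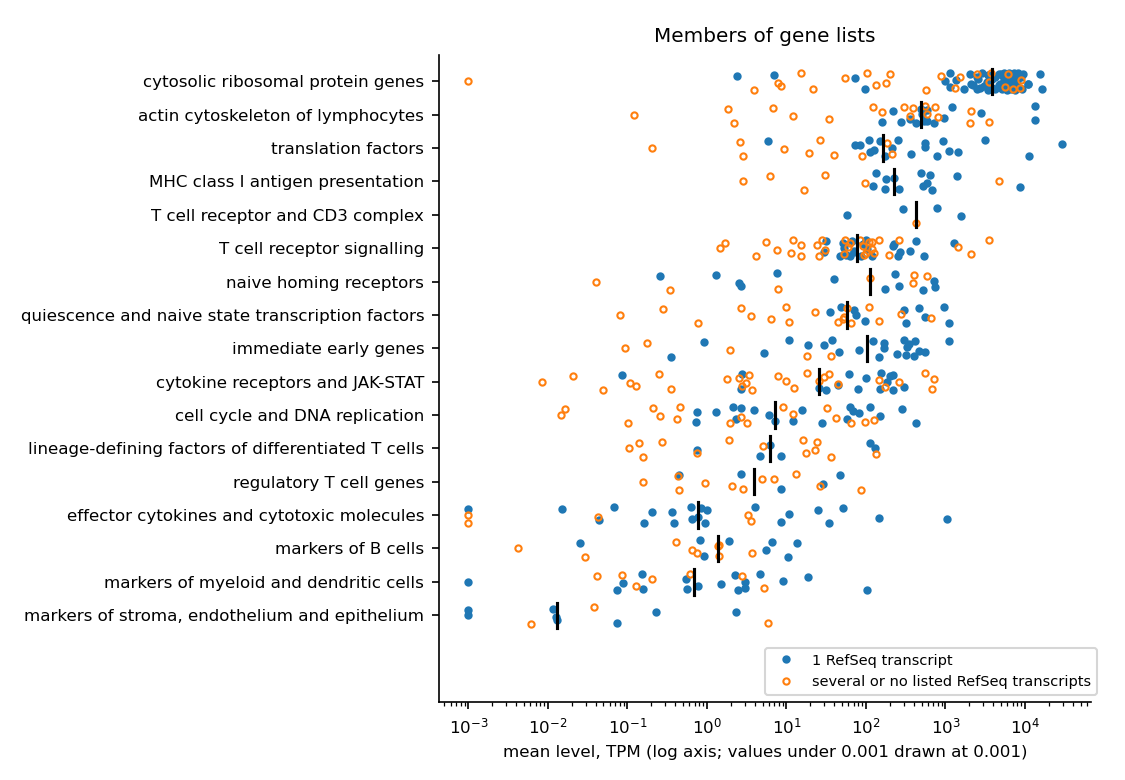
Mean level (TPM, log axis) of each messenger RNA gene in 17 lists, ordered by function, with a black bar at the list's median. Filled blue points have 1 annotated RefSeq transcript and open orange points have several or none listed. Ribosomal protein genes centre near 3838 TPM, effector genes near 0.78 TPM, and in the ribosomal protein list the low members are mostly open points.

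Levels were unequal among cytokine receptors and their kinases. The kinase Jak1 had 668 TPM ± 35.2 (2 transcripts) and the common gamma chain Il2rg 559 TPM ± 49.3 (2 transcripts). Il27ra had 300 TPM, Il4ra 259 TPM (2 transcripts), Il21r 201 TPM and Il6st 154 TPM. The interleukin 2 and 15 receptor chain Il2rb had 25.4 TPM, the kinase Jak3 2.79 TPM (2 transcripts), the factor Stat5a 2.53 TPM (3) and the interleukin 15 receptor chain Il15ra 0.13 TPM (9). The high-affinity interleukin 2 receptor chain Il2ra, which rises on activation, had 2.64 TPM. Receptors of effector subsets were unequal, with Il23r at 0.086 TPM and Il1rl1 (3 transcripts) at 0.11 TPM. Il18r1 had 25.5 TPM (3 transcripts) and Il12rb2 9.93 TPM (2). Among 43 genes of this list, 37 had at least 10 normalized reads, against 72.1% of messenger RNA genes with a level. The list's median was 25.5 TPM. The list of surface and secreted genes typical of naive cells also held intracellular ones such as Satb1 and Npm1. Its 16 genes had a median of 91.0 TPM, and 8 reached 100 TPM, against 9.58% of all messenger RNA genes. They included Ms4a6b at 1686 TPM, Dapl1 at 646 TPM, Igfbp4 at 352 TPM and Treml2 at 321 TPM (2 transcripts), and the lowest was Ly6a at 0.11 TPM (6 transcripts). In the Gimap family of lymphocyte GTPases Gimap6 had 1753 TPM ± 154 and Gimap3 1310 TPM, while Gimap4, with 5 transcripts, had 0.22 TPM. These genes are close paralogs, so their values are uncertain.

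Genes of the actin machinery and of the class I pathway were among the highest 30 messenger RNA genes. Tmsb4x, the peptide that holds actin monomers, had 13391 TPM ± 851 and Actb 13297 TPM ± 706. Their levels overlapped between libraries. Of 34 genes of the actin list, 28 reached 100 TPM, against 9.58% of all messenger RNA genes. B2m, the light chain of class I molecules, had 112576, 107069 and 103266 normalized reads and 8568 TPM ± 134, the heavy chain H2-K1 4683 TPM ± 569 (2 transcripts) and H2-D1 1385 TPM. The heavy chain genes are near-identical paralogs. All 27 interferon-stimulated genes had 10 normalized reads or more, against 72.1% of messenger RNA genes with a level. Ifi27l2a had 722 TPM (2 transcripts), Igtp 301 TPM and Ifit1 95.5 TPM, and the list's median was 31.5 TPM.

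Genes of the immediate early response were clearly present in these resting cells. Junb had 27198, 27903 and 33187 normalized reads and 1118 TPM ± 165, and Cd69, an early activation receptor, had 15486, 12001 and 13041 normalized reads and 548 TPM ± 64.2. Fos had 322, 265 and 447 TPM and Jun 323, 242 and 411 TPM. WT3 was highest and WT2 lowest for both. Of 28 such genes, 14 reached 100 TPM, against 9.58% of all messenger RNA genes, whereas Nr4a1 had 45.6 TPM, Egr1 29.3 TPM, Egr3 0.175 TPM (3 transcripts) and Nr4a2 0.094 TPM (2).

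Of 38 cell cycle genes, 33 had at least 10 normalized reads, against 72.1% of messenger RNA genes with a level. Mki67, a marker of cycling cells, had 1065, 771 and 1331 normalized reads and 7.22 TPM ± 2.11, Cdk1 0.76 TPM, Aurkb 0.73 TPM and Bub1 0.014 TPM (2 transcripts). Replication genes stood higher, with Pcna at 426 TPM ± 53.4 and Mcm6 at 97.9 TPM (2 transcripts). The cell cycle inhibitor Cdkn1b had 285 TPM ± 12.5 and the D cyclin Ccnd2 151 TPM. The median of the 37 cell cycle genes with a level was 7.22 TPM, against 4.31 TPM over all genes. In the list of glycolysis and glucose uptake genes Pdk1 led at 264 TPM (2 transcripts), and Hk2 had 0.21 TPM. That list's median was 29.3 TPM. The mTOR restraint genes Ddit4 and Pik3ip1 had 377 and 365 TPM. The list of mTOR, Myc and nutrient control genes ran from 0.028 to 377 TPM, with a median of 26.1 TPM.

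Of 27 effector genes, which encode cytokines and cytotoxic proteins, 13 had a mean under 10 normalized reads and 14 had more. A mean of at least 10 was reached by 72.1% of messenger RNA genes with a level. The list's median was 0.78 TPM, against 4.31 TPM over all genes. In it 11 members reached 1 TPM, against 62.4% of messenger RNA genes with a level. Il21, Il22 and Il6 had 0 reads in 93712885 over the 3 libraries, which allows up to 0.0320 reads in each 1000000 (3 reads, counting error only). Il2 had 1.39, 1.10 and 5.41 normalized reads, Ifng 12.5, 3.30 and 28.6, and Il4 a mean of 0.37. Il21, Il6 and Il4 have 2 transcripts each. These are counts of few reads, since 3 reads are worth 4.18, 3.30 and 2.32 normalized reads in WT1, WT2 and WT3. The highest were Ltb, the lymphotoxin that T cells make constitutively, with 18211, 18479 and 17032 normalized reads and 1057 TPM ± 20.5, Cd40lg with 145 TPM and Prf1 (perforin) with 1817, 2148 and 1675 normalized reads and 52.0 TPM. Tgfb1 followed with 34.7 TPM, Lta with 24.9 TPM and the granzyme Gzma with 10.9 TPM.

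Of 19 lineage factors of differentiated cells, 16 had at least 10 normalized reads, against 72.1% of messenger RNA genes with a level. The list's median was 6.15 TPM, against 4.31 TPM over all genes. Tbx21 had 0.75 TPM, Eomes 0.28 TPM (2 transcripts) and Foxp3, the factor of regulatory T cells, 0.16 TPM (3 transcripts) from 6.97, 9.90 and 9.27 normalized reads. Gata3, needed for CD4 T cell development, had 22.8 TPM (4 transcripts), Batf 111 TPM and Id2 131 TPM. Of 16 regulatory T cell genes none reached 100 TPM, against 9.58% of all messenger RNA genes, a share at which 16 genes would hold few or none. The highest were Izumo1r with 85.7 TPM (2 transcripts) and Nt5e with 47.0 TPM. Trim28, the corepressor removed in the other arm of the series, had 173, 173 and 207 TPM, percentile 95.8 of messenger RNA genes.

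Markers of other cell types were present at unequal levels. The 17 B cell genes with a level summed to 61.4, 21.4 and 66.6 TPM in WT1, WT2 and WT3, and the defining gene Cd79a had 5.58 TPM. The immunoglobulin constant segments were not analysed here. The 24 myeloid genes summed to 201, 112 and 165 TPM, of which Cst3, a protease inhibitor made by many cell types, gave 103 TPM on average. Lyz2 had 4.67 TPM, Csf1r 0.55 TPM, and Cd14 was at 0. Erythroid and platelet genes summed to 4.42 to 8.02 TPM, and Col3a1, Krt8 and the thymocyte gene Ptcra were at 0. The thymocyte list summed to 58.5, 66.4 and 60.8 TPM, nearly all of it from Cd1d1 (5 transcripts) at 61.4 TPM. Cd8a had 0.42 TPM (2 transcripts) and Cd8b1 853, 557 and 1032 normalized reads and 37.8 TPM. The 6 genes of the CD8 T cell list summed to 149, 144 and 186 TPM, and the highest was Cd7 at 79.7 TPM. Klrd1, a receptor of natural killer cells, had 863, 876 and 741 normalized reads and 63.2 TPM, with little difference between libraries, while Ncr1, which defines those cells, had 2.47 TPM (2 transcripts). The part of other cells in the values above was not tested.

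Non-coding RNA took 9.65%, 8.85% and 8.96% of all reads. Rmrp, the RNA of the enzyme RNase MRP, had 827227, 676912 and 732945 normalized reads, 2.07% to 2.53% of each library. By reads it was above Eef1a1 in WT1 and WT3 and below it in WT2. Rpph1, the RNA of RNase P, had 422109, 352016 and 408057 normalized reads, and the nuclear RNA Malat1 462466, 506691 and 592556. A row that neither gene table names, NR_046233, held more reads than any named gene in WT1 (924600 normalized reads) and WT2 (849875) and fewer than Rmrp and Eef1a1 in WT3 (546019). Its share of reads was 2.83%, 2.60% and 1.74%. Among small nucleolar RNAs and their hosts, Snora74a had 32065 and Gas5 (8 transcripts) 18643 mean normalized reads.

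Most genes differed little between the 3 libraries. Among 8504 genes with a mean of at least 100 normalized reads, the median SD of log2(normalized reads + 1) was 0.12 and the median coefficient of variation 8.0%, where counting alone would give 2.99%. The median coefficient was 24.6% for genes with 10 to 100 normalized reads (17.8% from counting), 10.5% for 100 to 1000 (5.55%), 6.59% for 1000 to 10000 (2.15%) and 6.74% above that (0.81%). The median coefficient was alike in the 2 highest of these classes. Lyst, a regulator of lysosomes, had 14288, 14288 and 14293 normalized reads, and the migration regulator Dock2 46955, 47075 and 47120.

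**Figure D4:**
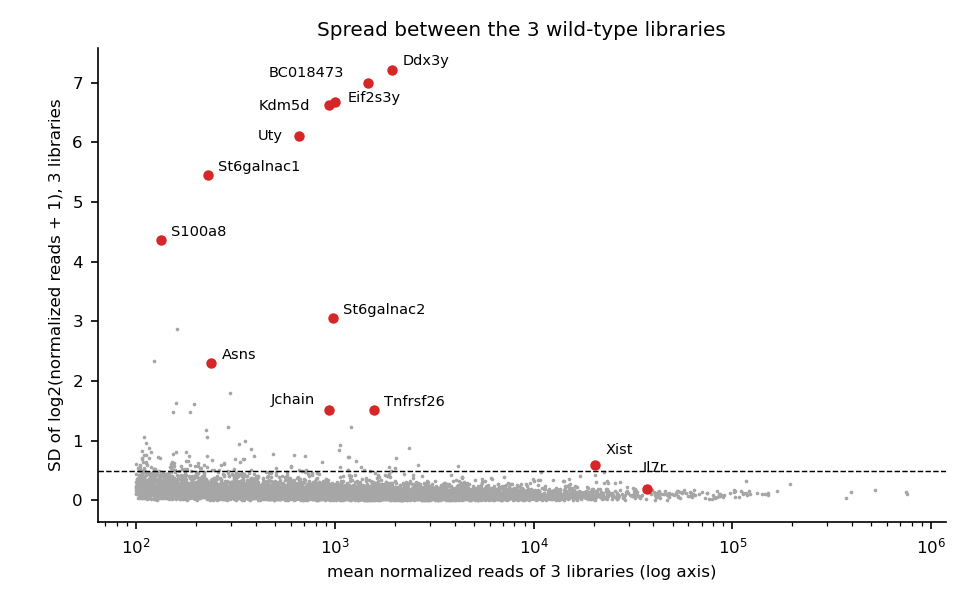
SD of log2(normalized reads + 1) over the 3 libraries against the mean of normalized reads (log axis) for 8504 genes. The dashed line marks an SD of 0.5, which 128 genes reached. Y-linked genes and a group on chromosome 11 stand far above the rest, and Il7r lies with the bulk.

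An SD of at least 0.5 on that scale was reached by 128 genes (1.51%), by 81 when WT2 was left out and by 199 without WT1. With a minimum of 10 normalized reads in place of 100, 1071 genes reached it. In 88 of the 128 genes WT2 was the library farthest from the other 2, in 22 WT1 and in 18 WT3. Over all 8504 genes WT2 was the farthest in 36.1%. The Y-linked gene Ddx3y, an RNA helicase, had 5801 normalized reads in WT1 and 0 in WT2 and WT3. Eif2s3y had 3022 and Kdm5d 2817 in WT1 alone, and Uty had 1986 in WT1 and 1 read in WT3. Uty has 3 transcripts and Eif2s3y 2. Xist, the RNA of the inactive X chromosome (2 transcripts), was lowest in WT1 but not absent, with 12289, 28062 and 20568 normalized reads. WT1 held both Y-linked RNA and Xist.

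WT2 differed from the others at neighbouring genes of chromosome 11. BC018473, a non-coding gene (chr11:116752167-116757883), had 0, 4420 and 0 normalized reads in WT1, WT2 and WT3. The sialyltransferase gene St6galnac1 (chr11:116765025-116775507) had 0, 690 and 0, and St6galnac2 (chr11:116676703-116695782) had 62.7, 2781 and 78.0. Snhg16 (3 transcripts), next to St6galnac2, had 233, 551 and 246, while Jmjd6 (4 transcripts) and Srsf2 further along had 2741, 2983 and 2802 and 11160, 10036 and 11721. On chromosome 7 the adjacent TNF receptor family genes Tnfrsf26 and Tnfrsf22 were also highest in WT2, with 993, 3311 and 412 and 183, 578 and 110 normalized reads. Tnfrsf22 has 2 transcripts.

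Other genes were lowest in WT2. The neutrophil gene S100a8 had 311, 0 and 88.1 normalized reads, the granule enzyme Mpo 227, 9.90 and 131, and the antibody joining chain Jchain 1485, 210 and 1108. The class II genes H2-Aa (293, 72.6 and 307), H2-Ab1 (250, 42.9 and 266) and H2-Eb1 (218, 30.8 and 229) did the same, as did the chemokine receptor Ccr2 with 138, 39.6 and 151. These are markers of myeloid cells, plasma cells and antigen-presenting cells. The summed B cell and myeloid marker levels given above were lowest in WT2 too. Those sums include the class II genes, S100a8 and Mpo, so they are not separate support. Asns, an amino acid synthesis enzyme, had 349, 20.9 and 348 normalized reads. The part of other cells in these differences was not tested.

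**Figure D5:**
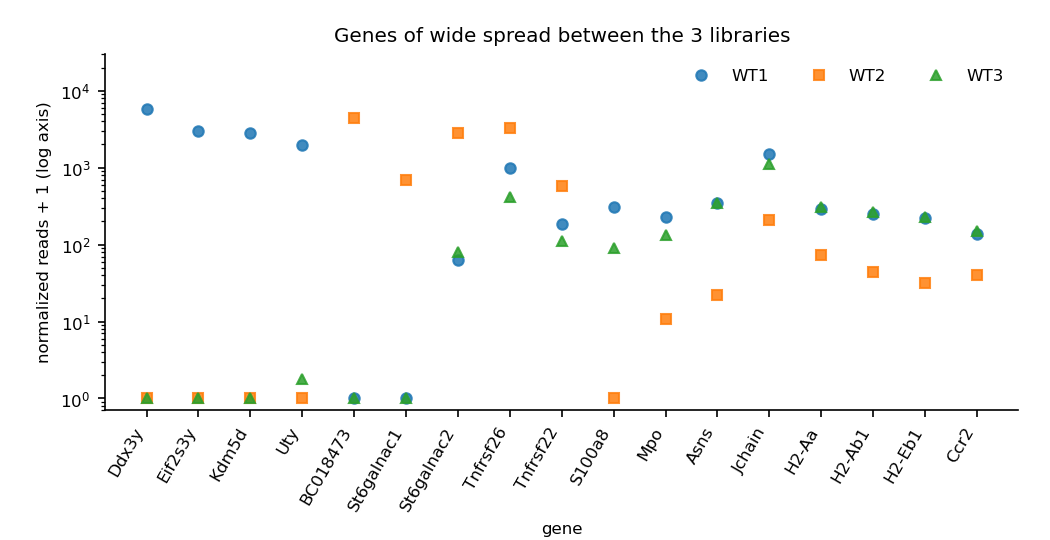
Normalized reads plus 1 (log axis) of 17 genes of wide spread in WT1 (circles), WT2 (squares) and WT3 (triangles). The 4 Y-linked genes are high only in WT1, 5 genes from BC018473 to Tnfrsf22 are highest in WT2, and the 8 genes from S100a8 to Ccr2 are lowest in WT2.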

How the data were processed

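Total RNA of sorted naive CD4 T cells was sequenced as paired 100 bp reads, per the labels' protocols. The submitters' processing notes name the mm10 build, DESeq2, STAR and HTSeq without versions. The deposited values are log10 of 1 plus normalized reads, found from the values: turned back, 100% in each library were whole multiples of 1 step, within 0.01. The sources used here do not give strandedness, so a gene and its antisense partner cannot be told apart. Symbols came from a RefSeq gene table of GRCm38.p6 (18811 rows) and GENCODE M21 (104 rows), and 133 of 19048 rows stayed unnamed. The row with the highest wild-type total stood for its gene. Lengths are those of the longest GENCODE transcript linked to the row's accession. Values were computed with Python 3.11.15 and pandas 2.3.3. Recovery of reads and the spread measure were tested on simulated data. Intervals and floors cover counting error only. Some members of the lists are not reported here. Each table column belongs to a sample of the series.

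No group comparison was made, so there is no test. Named genes are the supplied markers, the highest genes per length and by reads, the genes of widest spread, and the highest, lowest and zero members of each list. Not every gene this rule takes is reported, and others, such as Gapdh, Lyst, Dock2 and Trim28, were chosen after their values were seen. Members, lists and this rule were chosen with earlier results of these data known. Promoter windows and the eIF3 list were added after values were seen. Settings tried were rows summed per symbol, scaling by total reads, the length, unnamed rows, messenger rows only, thresholds and leaving out each library.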

Additional observations from a re-analysis of the deposited data

How the results depend on the processing

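No paired analysis was possible because a single group is described and no test was made. Most alternatives left the counts of genes and shares of reads near their values. Per length, with non-coding genes included, 51 genes held 50% of the total, ribosomal protein genes 27.2% and the 10 highest genes 29.2%, against 431 genes, 13.9% and 11.2% by reads. With messenger RNA rows only, ribosomal protein genes held 15.3% and the 10 highest genes 8.02%. With unnamed rows kept, the 10 highest held 13.1%. Restricted to genes with 1 RefSeq transcript, a choice made after seeing the data, 7842 genes were above 0 in all libraries, 6778 had a mean of at least 10 normalized reads, 211 held 50% of reads, and the 2 shares were 17.5% and 15.7%. Without NR_046233, Rmrp and Rpph1, chosen likewise, they were 14.7% and 9.04%. The count of genes with an SD of at least 0.5 was 1071 with a minimum of 10 normalized reads, 23 with a minimum of 1000, and 81 (without WT2) to 199 (without WT1) when a library was left out. Percentiles of 16 named genes moved by at most 5.04 points under alternatives other than the length, and by up to 15.0 points, for Mki67, when ranked by reads. Labels give no separate mice, genes with several transcripts are read from 1 row, and genes under 10 normalized reads rest on few reads.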

Other observations

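Complexes whose subunits work in fixed ratios, listed after values were seen, gave a further view of the levels. In the core particle of the proteasome 13 of 14 subunits reached 100 TPM, against 9.58% of all messenger RNA genes. These 13 ran from Psmb3 at 348 TPM to Psma5 at 106 TPM, and Psma7, with 2 transcripts, had 14.8 TPM ± 1.44. In the chaperonin TRiC, which folds actin and tubulin, 6 of the 7 subunits with a level lay between 262 and 568 TPM, and Tcp1, with 2 transcripts, had 18.9 TPM ± 0.85. In the Arp2/3 complex, which branches actin filaments, Arpc2 had 748 TPM (2 transcripts), Arpc4 42.7 TPM and Actr3 39.6 TPM, the last 2 with 3 transcripts each.

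A few genes known from other tissues had moderate levels. Mbp, named for myelin basic protein but also the source of golli transcripts in T cells, had 7266, 7698 and 7214 normalized reads and 106 TPM ± 4.23 (8 transcripts). Gfap, Tnnt2, Myh7 and Prm2, of glia, muscle and sperm, were at 0 in all 3 libraries. Chromatin partners of Trim28 ranged from Chd3 at 307 TPM and Chd4 (2 transcripts) at 255 TPM to Setdb1, with 3 transcripts, at 0.086 TPM.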
